A study of Mus musculus with 24 samples.

Results

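The genes described here are 9 mouse genes of the ARID family, Arid3a, Arid3b, Arid1a, Arid1b, Arid2, Arid4a, Arid4b, Arid5a and Arid5b. They were chosen by name, through the Ensembl identifiers of the count table, and all 9 were found among its 47069 genes. RNA was sequenced from cells called Gata1s-FLC, fetal liver cells of mouse embryos at day E12.5 to E13.5 with a GATA1s label, GATA1s being the short form of the blood transcription factor GATA1. All 24 libraries came from a knock-in strain whose name places Cas9 and EGFP under the general CAG promoter at the Rosa26 locus, and all carried the transgene sgGata1, a guide RNA to Gata1. The second transgene was miR-125b in 12 libraries and miR-ctrl, the control, in the other 12. Both arms were taken after 1 µg/mL doxycycline for 48 h (day 2), at day 10, at day 13 with doxycycline continued, and at day 13 with doxycycline removed on day 10, with 3 libraries in each of the 8 groups. The promoter of the second transgene, the number of embryos behind a culture and what a replicate number stands for are not given in the sources used here, so the p-values measure the spread among these libraries. In its title the series calls ARID3A a miR-125b target, and the other members are its relatives by protein domain.

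ARID proteins share an AT-rich interaction domain, a helical fold that binds DNA, and most act on transcription. ARID3A and ARID3B are DNA-binding transcription factors of blood and embryonic cells. ARID1A and ARID1B are alternative subunits of the BAF form of the SWI/SNF chromatin remodeller, and ARID2 belongs to its PBAF form. ARID4A and ARID4B bind the retinoblastoma protein and the Sin3 histone deacetylase complex, ARID5A binds certain messenger RNAs, and ARID5B works with the histone demethylase PHF2. A microRNA pairs through its seed, bases 2 to 8, with sites that lie mainly in 3′ UTRs, and paired messages are commonly degraded or translated less.

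The microRNA and its seed matches in the ARID genes are shown because the members differ in how many matches they hold. The mature sequence is from RefSeq on GRCm38.p6, where it is encoded at Mir125b-1 (chromosome 9, 41581940 to 41581961, plus strand) and Mir125b-2 (chromosome 16, 77646279 to 77646300, plus strand). Each site is read from GENCODE M21 transcripts (GRCm38) as a 22-base window of the message that ends at the base opposite microRNA base 1. Capitals mark the seed in the microRNA. In the sites they mark its 7-base match CTCAGGG, and the A after it where there is a match of 8 bases, CTCAGGGA.
miR-125b-5p: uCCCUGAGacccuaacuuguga
Arid3a site 1: gtggcctcctgtgcCTCAGGGA
Arid3a site 2: aacaacgggcctagCTCAGGGc
Arid3a site 3: ccatgggtaactggCTCAGGGA
Arid3a site 4: gcgccagatcctaaCTCAGGGg
Arid3a site 5: tgtccacctggtacCTCAGGGc
Arid3a site 6: gtgagacacccaaaCTCAGGGc
Arid3b site 1: tcttaaattcattcCTCAGGGc
Arid3b site 2: agcaggtggggtgaCTCAGGGA
Arid1b site 1: ttcccaaatctgacCTCAGGGA

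Arid3a held 6 of the 9 seed matches of the family, in a longest annotated 3′ UTR of 3082 bases. On chromosome 10, plus strand, the matches are at 79952887 to 79952894, 79952962 to 79952968, 79953820 to 79953827, 79954056 to 79954062, 79954243 to 79954249 and 79954279 to 79954285, in the order of the lines above. Their first bases stand at positions 951, 1026, 1884, 2120, 2307 and 2343 of the 3′ UTR, so neighbours are 75, 858, 236, 187 and 36 bases apart. Outside the seed match, 1 to 6 of the 14 remaining bases of each Arid3a window pair with the facing base of the microRNA, 6 in site 3 and 1 in site 6.

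Arid3b had 2 matches in a 3′ UTR of 2160 bases, at 57791954 to 57791960 and 57791441 to 57791448 on the minus strand of chromosome 9, with first bases at positions 556 and 1068. Arid1b had 1 match in 4569 bases of 3′ UTR, at 5346878 to 5346885 of chromosome 17 (plus strand), which starts at position 3791. Arid3a and Arid3b each held 1 further match of the form TCAGGGA, to bases 2 to 7 with an A opposite base 1. The 3′ UTRs of Arid1a, Arid2, Arid4a, Arid4b, Arid5a and Arid5b, 988 to 3984 bases long, held none of the 7-base matches. Only the message strand was searched, and the 8-base matches are counted among the 7-base ones.

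A match to this seed was common among all genes, whereas 6 were rare. Of 11678 tested genes with an annotated 3′ UTR, 17.3% held at least 1 CTCAGGG, 6.14% held CTCAGGGA, 2.99% held at least 2 matches and 3 genes, 0.0257%, held at least 6. The other 2 of those 3 genes were D10Wsu102e, with 25 matches in an annotated 3′ UTR of 122583 bases, and D1Ertd622e, with 6 in 39397 bases. Neither passed the test in the average of the miR-125b comparisons described below, with log2 fold changes of -0.01 ± 0.05 (SE, edgeR adjusted p 0.968) and -0.15 ± 0.36 (0.934). A match is a run of letters and was not tested as a site of action.

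**Figure D1:**
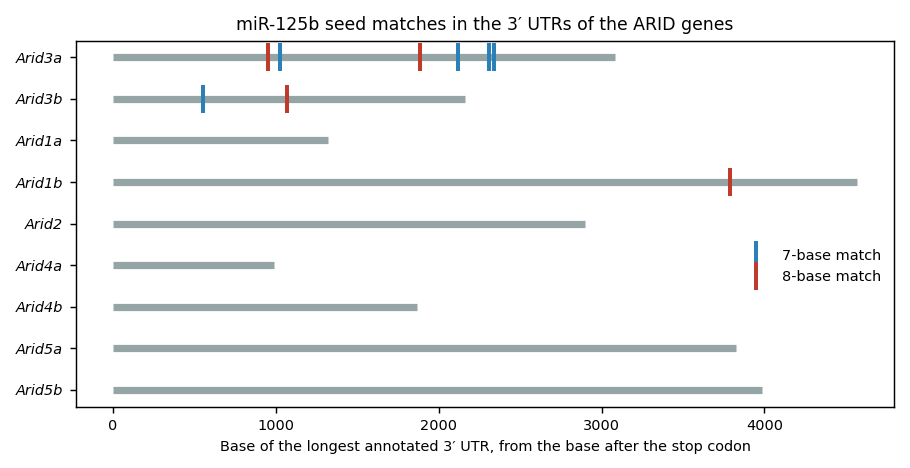
Position of the miR-125b seed matches in the longest annotated 3′ UTR of each ARID gene. The horizontal axis gives the distance from the start of the 3′ UTR in bases, each bar is the 3′ UTR of 1 gene, and marks show 7-base and 8-base matches. Arid3a holds 6 marks, Arid3b 2 and Arid1b 1, and 6 genes have none.

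Library totals ran from 14694900 to 23755245 counts, and 13419 genes passed the filter on low counts, 8 of the 9 ARID genes among them. Gata1, the gene the guide is directed to, was read in every library at 194 to 514 CPM (counts scaled by TMM to a common library total), which does not separate its short from its full-length form. Mir125b-1 and Mir125b-2 had 0 counts in 24 libraries, which allows up to 3 counts in each, so the microRNA itself was not read here. The 6 megakaryocyte markers summed to 2781 to 6975 CPM and the 5 progenitor markers to 501 to 1294 CPM. Erythroid markers (7) summed to 79.3 to 278 CPM and myeloid markers (8) to 53.4 to 239 CPM. B cell markers (4) stayed between 0.215 and 1.02 CPM, endothelial and stromal markers (4) between 1.34 and 6.89, and hepatocyte markers (4) between 1.36 and 4.56 with Ttr at 0 in 24 libraries.

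The ARID genes spanned a wide range of levels. On a scale per length of merged exons (RPKM), Arid1a was highest, with a median of 19.2 over the 24 libraries and a range of 12.7 to 25.8. Arid3a (median 9.25, 4.80 to 13.7), Arid2 (9.02, 6.11 to 10.3), Arid4a (7.29, 4.82 to 9.31) and Arid1b (6.83, 5.48 to 9.98) followed. Arid3b had a median of 3.26 (2.10 to 4.87) and Arid4b 2.38 (1.76 to 2.84). Arid5a, at 0.149 (0.0579 to 0.260), and Arid5b, at 0.0184 (0.00485 to 0.0575), were far below the rest.

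Most neighbours in that order kept it in nearly all libraries. Arid1a exceeded Arid3a, Arid1b exceeded Arid3b, Arid4b exceeded Arid5a, and Arid5a exceeded Arid5b in 24 of 24. Arid2 exceeded Arid4a, and Arid3b exceeded Arid4b, in 23 of 24. Arid4a exceeded Arid1b in 16 of 24, so these levels were not separated beyond their spread. Arid3a exceeded Arid2 in 12 of 24 libraries, and these divided by arm. In the control libraries the median RPKM was 11.3 for Arid3a and 9.16 for Arid2, with Arid3a higher in 10 of 12. In the miR-125b libraries it was 5.89 for Arid3a and 8.46 for Arid2, with Arid3a higher in 2 of 12.

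**Figure D2:**
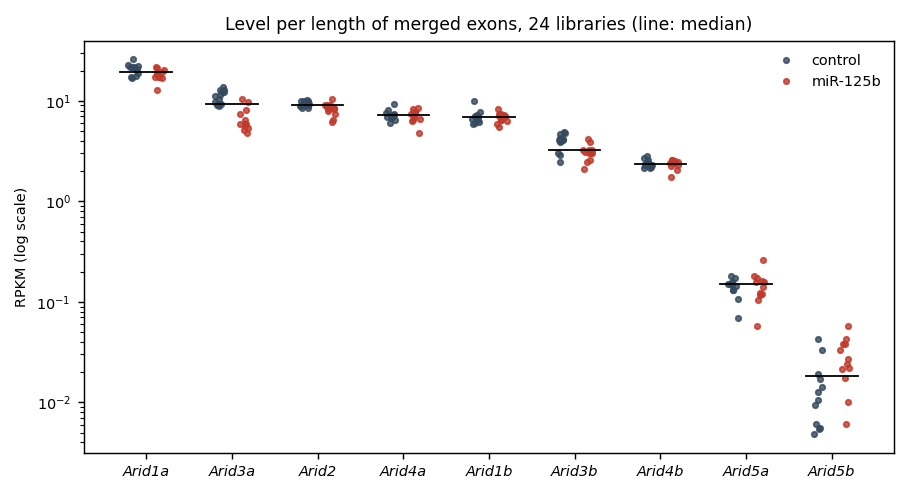
Level of the 9 ARID genes per length of merged exons, in RPKM from TMM-scaled counts on a log axis, with 1 point for each of the 24 libraries coloured by arm. Arid1a lies highest with a median of 19.2 RPKM and Arid5b lowest at 0.0184, and the control and miR-125b medians of Arid3a are 11.3 and 5.89.

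Arid3a (ENSMUSG00000019564, chromosome 10, 79927043 to 79955018, plus strand) encodes the transcription factor named in the series title. At day 2 its CPM in replicates 1, 2 and 3 was 41.3, 32.6 and 28.5 with miR-125b and 68.3, 52.1 and 58.6 in control. At day 10 the values were 32.8, 32.8 and 29.8 with miR-125b and 50.8, 53.6 and 71.0 in control. Every miR-125b library of these days lay below every control library of the same day. The libraries labelled day 13 with continued doxycycline held 45.4, 57.5 and 53.7 with miR-125b and 49.5, 61.5 and 71.9 in control, and these ranges overlapped. Those labelled day 13 after withdrawal held 31.4, 35.6 and 26.7 with miR-125b and 68.1, 64.1 and 76.3 in control, again without overlap and with the widest gap of the 4 conditions.

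Control group means of Arid3a ran from 58.5 to 69.5 CPM, highest after withdrawal. With miR-125b the means were 34.1, 31.8 and 31.2 CPM at day 2, day 10 and after withdrawal, and 52.2 with continued doxycycline. Taking libraries with the same replicate number together, the miR-125b library held 48.6% to 62.5% of the control CPM at day 2, 42.0% to 64.6% at day 10, 74.7% to 93.4% under continued doxycycline and 35.0% to 55.5% after withdrawal. It was the lower library in 12 of 12 such pairs. In bulk RNA, fewer cells that make a message and less of it per cell cannot be told apart.

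**Figure D3:**
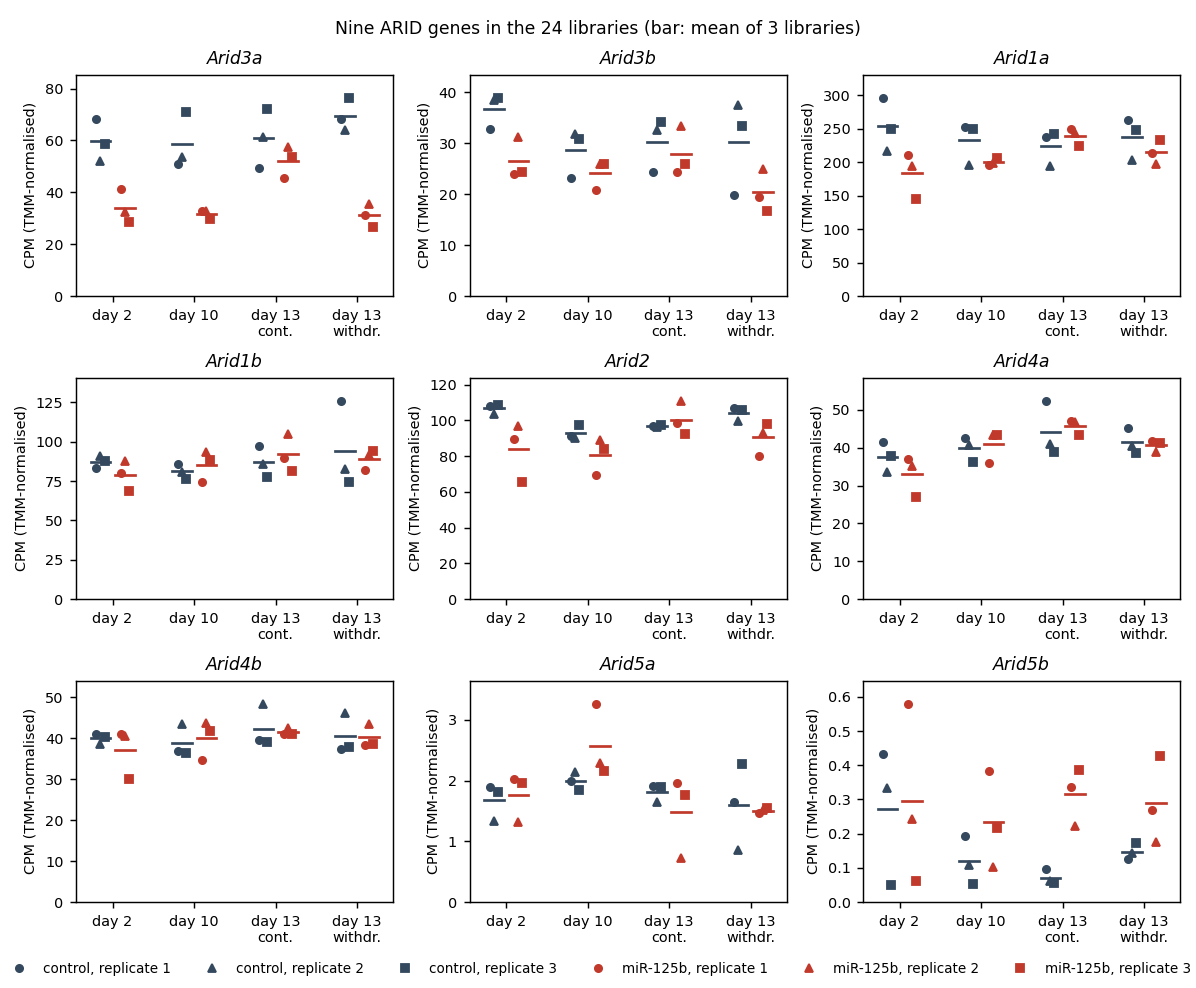
CPM of each ARID gene in every library, with 1 panel per gene, the 4 conditions on the horizontal axis and the 3 libraries of each arm as points. The scale starts at 0 and differs between panels. Arid3a points of the arms lie apart at day 2, at day 10 and after withdrawal and overlap with continued doxycycline, while Arid4a and Arid4b points overlap throughout.

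In the edgeR fit, Arid3a fell with miR-125b at day 10 and after withdrawal. The log2 fold change was -0.88 ± 0.16 (SE; 95% interval -1.23 to -0.53, edgeR adjusted p 0.0230) at day 10 and -1.15 ± 0.16 (-1.50 to -0.81, adjusted p 0.00435) after withdrawal, the lowest p of all genes there. At day 2 it was -0.81 ± 0.16 (-1.15 to -0.46), also the lowest p of all genes, but the edgeR adjusted p was 0.632, while DESeq2 gave 0.0138. With continued doxycycline it was -0.22 ± 0.16 (-0.57 to 0.12, edgeR adjusted p 0.999). Averaged over the 4 conditions the fold was -0.77 ± 0.08 (-0.94 to -0.59, edgeR adjusted p 5.85e-05), and it was past the threshold in all 24 fits that left out 1 library. This fit took the 24 libraries as independent, although libraries of the same replicate number deviated together, as described under processing. The SE and p of every average given here therefore describe the spread among libraries, not among cultures.

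The day 10 call of Arid3a was the less steady of the calls at a single condition. It was made in 2 of 6 fits without 1 library and lost without miR-125b replicate 1, miR-125b replicate 3, control replicate 1 or control replicate 3, with adjusted p between 0.0121 and 0.173. The withdrawal call was made in 6 of 6 such fits, with adjusted p between 0.00848 and 0.0461, and neither was made when the fit held only the 6 libraries compared. The Arid3a difference was smallest in the libraries labelled continued. The average was therefore also taken without them, which gave -0.95 ± 0.09, and without all day 13 libraries, which gave -0.84 ± 0.11. These sets were left out after the values of Arid3a were seen, so the averages over the rest are descriptions and no test is read from them, here or for the other members. The labels were kept as deposited. Whether the day 13 sets carry each other's doxycycline labels was not tested, and if they did, every value given as withdrawal or continued would change its name.

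Myeloid markers also differed between the arms. The median log2 fold change of the 8 myeloid markers was 1.44 at day 2, 2.93 at day 10, 2.04 under continued doxycycline and 3.32 after withdrawal, and Mpo, the myeloperoxidase of neutrophil granules, passed the edgeR test at day 10 (17.8 ± 7.37 CPM against 0.508 ± 0.418, SD, adjusted p 0.0150) and after withdrawal (19.6 ± 7.94 against 0.165 ± 0.139, adjusted p 0.00435). In the average over the conditions 4 of the 8 rose, Mpo, Ctsg, Mcpt8 and Prss34, where 1.28% of all genes passed. Values were lower with miR-125b for 0, 1, 2 and 1 of the 8 in the 4 conditions and for 1 in the average. Several were read at low levels. The median CPM was 0.123 for Elane, 0.258 for Ctsg, 0.458 for Csf1r, 0.553 for Mcpt8 and 0.648 for Prss34. The summed level of the 8 did not separate the arms at day 10, at 113 to 182 CPM with miR-125b against 67.1 to 239 in control, or after withdrawal, at 63.3 to 190 against 53.4 to 138. It did at day 2, at 105 to 163 against 80.0 to 91.2. With continued doxycycline it was 55.4 to 139 against 57.4 to 139. Their part in the Arid3a result was not tested. No progenitor, megakaryocyte, erythroid, B cell, hepatocyte or endothelial and stromal marker passed the edgeR test in a miR-125b comparison. With the replicate block the myeloid markers called were 0, 5, 2, 4 and 5 of 8, all higher, in the 4 conditions and the average. The shares of all genes called there were 0%, 8.63%, 0.0149%, 1.86% and 6.39%. Among the other marker genes reported here, the block called Gp9 lower at day 10, Gp9 and Gp1ba lower after withdrawal and in the average, Ptprc higher in the average, and Hba-a1 lower after withdrawal and in the average. Counts of Hba-a1 are uncertain, since it has a near-identical copy, Hba-a2. These lists did not move as a whole. Without the block, 2, 5 and 4 of the 6 megakaryocyte markers were lower with miR-125b at day 10, after withdrawal and in the average. Of the 5 progenitor markers 4 were lower in the average, opposite to Ptprc. Of the 7 erythroid markers 4 were lower after withdrawal and 4 in the average.

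Arid3b (ENSMUSG00000004661, chromosome 9, 57790353 to 57836793, minus strand) is the closest relative of Arid3a in the set. Its CPM at day 2 was 23.9, 31.3 and 24.3 with miR-125b and 32.8, 38.6 and 38.8 in control, and at day 10 it was 20.8, 26.0 and 25.9 against 23.2, 31.8 and 30.9. The arms lay apart at day 2 and overlapped at day 10. With continued doxycycline the values were 24.4, 33.3 and 25.9 against 24.3, 32.6 and 34.1, and after withdrawal 19.5, 24.9 and 16.7 against 19.8, 37.4 and 33.4. The arms overlapped in both, after withdrawal through control replicate 1, whose 19.8 CPM stood well below the other 2 controls.

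By pairs of the same replicate number, which cannot be counted as independent, Arid3b was lower with miR-125b in 10 of 12. The miR-125b library held 62.6% to 81.2% of control at day 2, 81.8% to 89.6% at day 10, 76.1% to 102% under continued doxycycline and 50.1% to 98.2% after withdrawal. Its log2 fold changes were -0.47 ± 0.21 at day 2, -0.24 ± 0.21 at day 10, -0.12 ± 0.21 under continued doxycycline and -0.57 ± 0.21 after withdrawal. None passed, with edgeR adjusted p of 0.934, 0.620, 0.999 and 0.409. The average was -0.35 ± 0.10 (95% interval -0.57 to -0.13, edgeR adjusted p 0.116).

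In the edgeR fits to all 24 libraries, Arid3b was called with the replicate number as a block and not without it. The number accounted for 64.9% of its sum of squares within groups, with mean log2 CPM of 4.55, 4.99 and 4.81 in numbers 1, 2 and 3, and for 0.852% of that of Arid3a, at 5.55, 5.56 and 5.59. With the block, Arid3b fell after withdrawal (-0.55 ± 0.13, edgeR adjusted p 0.0388) and in the average (-0.35 ± 0.07, 0.00273). The average passed with DESeq2 too (adjusted p 0.0487) and, without the block, in 1 of 24 fits that left out a library, the one without control replicate 1 of withdrawal (-0.41, edgeR adjusted p 0.0234). Without the libraries labelled continued the average of Arid3b was -0.43 ± 0.12, and without all day 13 libraries -0.35 ± 0.11. Both sets were left out after values were seen, so these averages are descriptions. Of the exon bases of Arid3b, 360 (4.51%) are shared with Gm17231 on the opposite strand, and reads there cannot be assigned since the counting is not stated to use strand.

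The log2 ratio of Arid3a to Arid3b counts, taken within a library, set the pair side by side. Its mean was 0.36 ± 0.38 with miR-125b and 0.69 ± 0.32 in control at day 2 (SD, 3 libraries), 0.40 ± 0.23 and 1.03 ± 0.24 at day 10, 0.91 ± 0.13 and 1.01 ± 0.08 with continued doxycycline, and 0.62 ± 0.10 and 1.25 ± 0.50 after withdrawal. Averaged over the conditions by replicate number it was 0.57 ± 0.17 with miR-125b and 0.99 ± 0.26 in control (SD, 3 values in each). The ratio was the lower in the miR-125b library in 12 of 12 pairs of the same replicate number, and the averaged differences by number were -0.49, -0.30 and -0.48. The mean difference was -0.42. An exact two-sided permutation of the 6 values gave p = 0.2 and can give no less than 0.1, and an exact sign-flip test of the 3 averaged pairs, added after the values were seen, gave p = 0.25, the smallest it can give. Neither test could pass the threshold with 3 values in an arm, so whether the folds of Arid3a and Arid3b differ was not settled.

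Among the SWI/SNF members, Arid1a (ENSMUSG00000007880, chromosome 4, 133679008 to 133756769, minus strand) had 210.3, 195.1 and 145.8 CPM with miR-125b against 295.7, 216.3 and 250.3 in control at day 2. At day 10 it had 196.2, 199.2 and 206.9 against 253.4, 196.3 and 249.2. The arms lay apart at day 2 and met at day 10 in control replicate 2. With continued doxycycline the values were 249.2, 244.4 and 224.3 against 238.3, 193.9 and 242.4, and after withdrawal 214.6, 197.3 and 233.4 against 262.8, 203.9 and 248.0, with overlap in both. The log2 fold changes of Arid1a in this order were -0.47 ± 0.14, -0.22 ± 0.14, 0.09 ± 0.14 and -0.15 ± 0.14 (edgeR adjusted p 0.811, 0.461, 0.999 and 0.827), and the average was -0.19 ± 0.07 (0.248).

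Arid2 (ENSMUSG00000033237, chromosome 15, 96287518 to 96404992, plus strand) had 89.5, 97.0 and 65.6 CPM with miR-125b against 108.1, 103.4 and 108.4 in control at day 2. At day 10 it had 69.5, 88.8 and 84.1 against 91.4, 90.3 and 97.3, and after withdrawal 80.3, 93.1 and 98.2 against 106.7, 99.3 and 105.8. Each of these sets lay apart, with the miR-125b libraries the lower and the more scattered. With continued doxycycline the 98.3, 110.7 and 92.1 of miR-125b surrounded the 96.8, 96.1 and 97.3 of control. The log2 fold changes of Arid2 were -0.34 ± 0.12 at day 2, -0.20 ± 0.12 at day 10, 0.05 ± 0.12 under continued doxycycline and -0.20 ± 0.12 after withdrawal, and none passed (edgeR adjusted p 0.881, 0.398, 0.999 and 0.672). Their average was -0.17 ± 0.06 (0.186).

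Arid1a and Arid2 passed in no comparison of all 24 libraries, but both came closer with the replicate block, at adjusted p of 0.0722 and 0.0674 for the average. Without the libraries labelled continued, where neither was lower with miR-125b, their averages were -0.28 ± 0.08 and -0.25 ± 0.07. Those libraries were left out after the values were seen, so these averages are descriptions and no test is read from them. Arid1a and Arid2 also varied together across libraries, with r = 0.927 over 24 libraries centred within replicate number, the highest among the 7 members of sufficient level. Libraries of a group share their condition, so the correlation describes this set and carries no test.

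Arid1b (ENSMUSG00000069729, chromosome 17, 4994332 to 5347656, plus strand), the alternative to Arid1a in BAF, overlapped between the arms in every condition. Its CPM ran from 69.0 to 104.9 in the miR-125b libraries and from 74.4 to 125.8 in control, the highest in control replicate 1 after withdrawal. Its log2 fold changes ran from -0.14 ± 0.15 at day 2 to 0.08 ± 0.15 with continued doxycycline, and the average was -0.02 ± 0.08 (95% interval -0.18 to 0.15, edgeR adjusted p 0.970). This gene holds 1 seed match of 8 bases.

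Arid4a (ENSMUSG00000048118, chromosome 12, 71015990 to 71098592, plus strand) and Arid4b (ENSMUSG00000039219, chromosome 13, 14063232 to 14199603, plus strand), the partners of retinoblastoma protein and Sin3, differed little between the arms. Arid4a ran from 27.1 to 47.1 CPM with miR-125b and 33.6 to 52.3 in control, and Arid4b from 29.9 to 43.6 and 36.4 to 48.2. Both overlapped between the arms in all 4 conditions. Their averages were -0.03 ± 0.06 (-0.16 to 0.10, edgeR adjusted p 0.921) for Arid4a and -0.02 ± 0.06 (-0.16 to 0.11, 0.937) for Arid4b. Arid4b shares 257 exon bases (1.52%) with Ggps1 on the opposite strand.

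Arid5a (ENSMUSG00000037447, chromosome 1, 36307733 to 36324029, plus strand) was read with only 13 to 53 counts per library. Its CPM at day 10 was 3.26, 2.28 and 2.16 with miR-125b and 1.99, 2.15 and 1.84 in control, the only member whose miR-125b libraries all lay above control at that day. The log2 fold change there was 0.36 ± 0.34 (edgeR adjusted p 0.653). The arms overlapped in the other conditions, and the average was 0.01 ± 0.17 (-0.36 to 0.38, edgeR adjusted p 0.992).

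Arid5b (ENSMUSG00000019947, chromosome 10, 68092520 to 68278740, minus strand) had 1 to 10 counts per library, did not pass the filter and was not tested. With continued doxycycline it stood at 0.336, 0.224 and 0.386 CPM in the miR-125b libraries and at 0.0955, 0.0611 and 0.0559 in control, and after withdrawal at 0.271, 0.175 and 0.427 against 0.127, 0.143 and 0.172. The arms lay apart in both, but each control value rests on a few reads. At day 2 and day 10 they overlapped.

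Read across the family, few members differed between the arms. At day 2, 0 of 8 tested members passed the edgeR test (0% of all genes), although 4 had an unadjusted p under 0.05 (5.28%) and DESeq2 called 1, Arid3a. At day 10 only Arid3a passed (0.872% of all genes), with continued doxycycline 0 (0%), after withdrawal only Arid3a (0.119%), and in the average only Arid3a (1.28%). The unadjusted p was under 0.05 for 1 member at day 10 (17.4% of all genes), 0 with continued doxycycline (2.89%), 2 after withdrawal (8.55%) and 4 in the average (12.1%). DESeq2 called 1, 0, 1 and 2 members in the same order, with Arid3b among those of the average. At day 2 and in each of these comparisons DESeq2 called more genes in all than edgeR, as counted in the last section. Under the replicate block the members that passed were 0 at day 2 (0% of all genes), Arid3a at day 10 (8.63%), 0 with continued doxycycline (0.0149%), and Arid3a with Arid3b after withdrawal (1.86%) and in the average (6.39%).

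Separation without overlap was more frequent than a call. It was found for 4 of 8 tested members at day 2 (12.3% of all genes), which were Arid3a, Arid3b, Arid1a and Arid2, and for 3 at day 10 (19.7%), which were Arid3a, Arid2 and Arid5a. With continued doxycycline it was found for 0 (8.52%) and after withdrawal for 2, Arid3a and Arid2 (11.4%). The median log2 fold change of the 8 members was -0.27 at day 2, -0.08 at day 10, 0.01 with continued doxycycline, -0.12 after withdrawal and -0.10 in the average. Over all genes tested the medians in the same order were 0.00, 0.00, -0.02, -0.01 and -0.01. Lower values with miR-125b were seen in 7, 4, 4, 8 and 7 of the 8 members, against 49.1%, 49.4%, 53.8%, 52.3% and 53.4% of all genes.

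**Figure D4:**
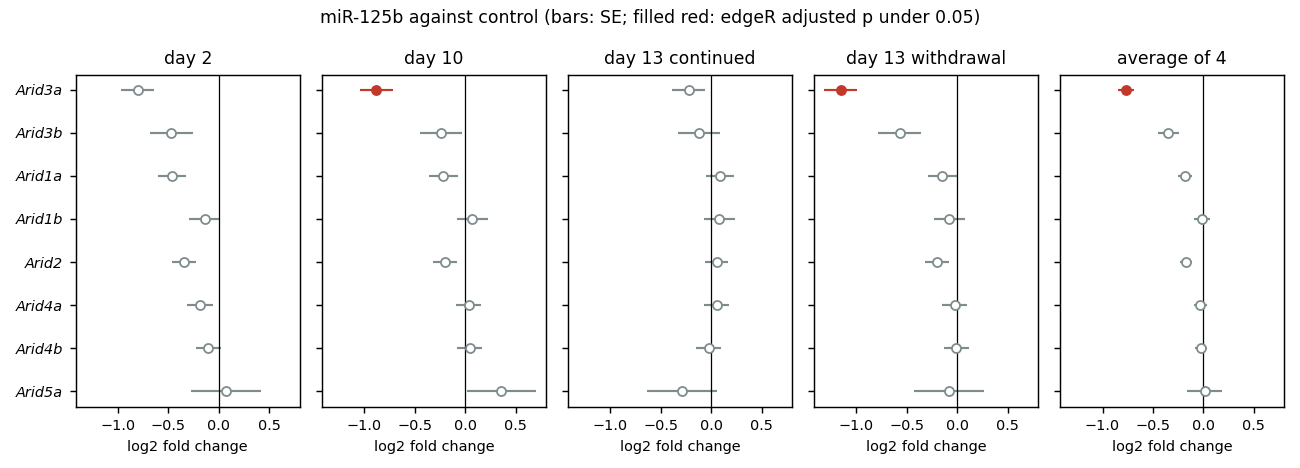
Log2 fold change of miR-125b against control for the 8 tested ARID genes in each of the 4 conditions and in their average, with bars of 1 SE from the edgeR fit. Arid3a lies lowest at day 2 (-0.81), day 10 (-0.88) and after withdrawal (-1.15), and Arid1b, Arid4a and Arid4b lie near 0.

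**Figure D5:**
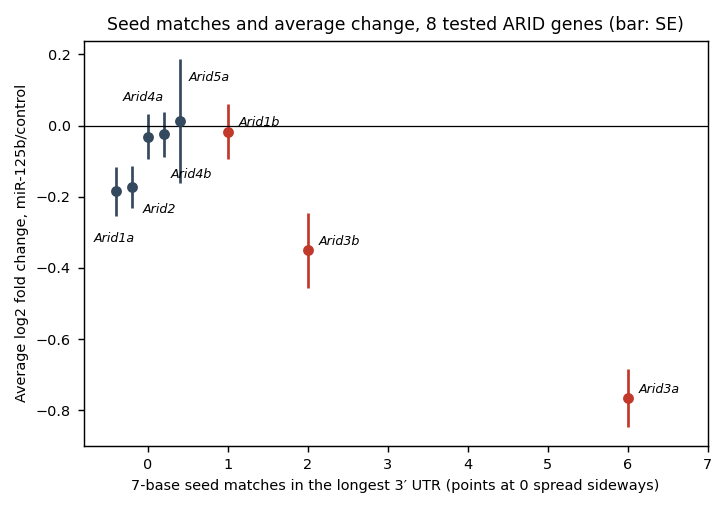
Average log2 fold change of miR-125b against control for the 8 tested ARID genes (vertical axis, bars of 1 SE) by the number of 7-base seed matches in the longest 3′ UTR (horizontal axis). Arid3a with 6 matches lies at -0.77, Arid3b with 2 at -0.35 and Arid1b with 1 at -0.02, while the 5 genes with none lie between -0.19 and 0.01.

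Against the number of seed matches, the 2 members with more than 1 match had the lowest averages, -0.77 for Arid3a with 6 and -0.35 for Arid3b with 2. Arid1b, with 1 match, at -0.02, lay above Arid1a (-0.19) and Arid2 (-0.17), which have none. With 8 genes of unequal level this is a description of the set and was not tested.

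By the labels, the comparison of withdrawal with continued doxycycline asks what followed when doxycycline was removed on day 10. In miR-125b cells Arid3a was at 31.2 ± 4.45 CPM (SD) in the libraries labelled withdrawal and 52.2 ± 6.15 in those labelled continued, without overlap. Its log2 fold change was -0.74 ± 0.16 (edgeR adjusted p 0.372) and that of Arid3b was -0.45 ± 0.21 (1.00). Of the 8 tested members 0 passed (0% of all genes), while 2 had an unadjusted p under 0.05 (2.21%), and DESeq2 and the block (0.0522% of all genes) called 0. Arid4a was the other member without overlap, at -0.17 ± 0.13 (9.02% of all genes did not overlap).

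In control cells the same comparison gave 0.19 ± 0.16 for Arid3a and values from -0.19 to 0.12 for the other members. Of the 8, 0 passed the edgeR test (0% of all genes), and 0 had an unadjusted p under 0.05 (2.65%). DESeq2 and the block (0.00745% of all genes) called 0. Arid2 was the member without overlap (5.02% of all genes). As an interaction, the fold of Arid3a after withdrawal minus that with continued doxycycline was -0.93 ± 0.23. No gene had a lower p (unadjusted 0.000611), but the edgeR adjusted p was 1.00. For Arid3b that difference was -0.45 ± 0.30, and 0 of 8 members passed (0% of all genes). An unadjusted p under 0.05 was found for 1 member (1.68% of all genes), and neither DESeq2 nor the block (0% of all genes) called any.

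Between day 2 and day 10, Arid3a differed little in either arm, by -0.10 ± 0.16 with miR-125b and -0.03 ± 0.16 in control. Arid3b in control went from 36.7 ± 3.38 to 28.6 ± 4.73 CPM (SD) without overlap, a log2 fold change of -0.36 ± 0.21 (edgeR adjusted p 0.868; 0.265 with the block). Arid4a with miR-125b went from 33.1 ± 5.30 to 40.9 ± 4.24 CPM, at 0.31 ± 0.13 (0.255). With miR-125b 0 of 8 members passed the edgeR test (0.224% of all genes), and 1 had an unadjusted p under 0.05 (14.9%). Arid5a was the member without overlap (19% of all genes), from 1.77 ± 0.39 to 2.57 ± 0.60 CPM. In control 0 passed (0%) and 0 had an unadjusted p under 0.05 (6.75%), and Arid3b and Arid2 were without overlap (14.6%). DESeq2 called 0 members in either arm, as did the block (4.08% and 0.149% of all genes).

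Other genes that encode an ARID domain were followed as a list of 6, the Kdm5 histone demethylases Kdm5a to Kdm5d, their relative Jarid2 and Arid3c. Arid3c was at 0 in 14 libraries and was not tested. The list medians were -0.18, 0.07, -0.08, -0.18 and -0.07 at day 2, day 10, continued, withdrawal and in the average. Of the 5 tested, 0 passed in any of these miR-125b comparisons, where 0%, 0.872%, 0%, 0.119% and 1.28% of all genes passed. Jarid2, a partner of the Polycomb complex, fell in the average with the block (76.7 against 88.6 CPM, -0.19 ± 0.06, edgeR adjusted p 0.0361, where 6.39% of all genes passed) and not without it (-0.21 ± 0.09, 0.345). Kdm5d, which lies on the Y chromosome, ran from 27.9 to 50.5 CPM in the 8 libraries of replicate number 1, 0.428 to 8.86 in number 2 and 12.53 to 18.2 in number 3, in both arms.

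The partners of Arid1a, Arid1b and Arid2 in BAF and PBAF, 24 genes all tested, gave list medians of -0.07, -0.14, 0.04, 0.02 and -0.03 in the same order. At day 10 1 of 24 fell, where 0.872% of all genes passed. It was Actl6a, an actin-related subunit, at 83.3 ± 10.0 CPM with miR-125b against 110.3 ± 3.97 in control (SD). Its log2 fold change was -0.40 ± 0.09 (edgeR adjusted p 0.0337). That call was lost without miR-125b replicate 1 or 3 and without control replicate 1 or 3 (adjusted p 0.127 to 0.264), without the filter on low counts (0.0609), and with only the 6 libraries compared (0.294). In the other miR-125b comparisons 0 of 24 passed. The shares of all genes were 0% at day 2 and with continued doxycycline, 0.119% after withdrawal and 1.28% in the average. With the block at day 10, Phf10 rose (0.34 ± 0.09, adjusted p 0.0285) and Smarcd1 fell (-0.35 ± 0.09, 0.0233) beside Actl6a, 3 of 24 where 8.63% of all genes passed.

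The Sin3 and retinoblastoma partners of Arid4a and Arid4b, 18 genes all tested, had medians of 0.03, 0.01, 0.03, 0.04 and 0.01. Brms1, a subunit of Sin3 deacetylase complexes, fell at day 10 from 85.7 ± 2.23 CPM in control to 53.8 ± 9.08 (SD; -0.67 ± 0.11, edgeR adjusted p 0.0123) and in the average (-0.29 ± 0.05, 0.00846). Its day 10 call was lost without miR-125b replicate 3, control replicate 1 or control replicate 3 (adjusted p 0.0534 to 0.0989) and with only the 6 libraries compared (0.294), while the average passed in all 24 fits without 1 library. No other gene of that list passed without the block, where 0.872% of all genes passed at day 10 and 1.28% in the average. With the block, Sap30l fell after withdrawal (-0.72 ± 0.16, edgeR adjusted p 0.0222), where 1.86% of all genes passed. The 6 partners of the Arid3 and Arid5 proteins had medians of -0.06, -0.16, 0.03, 0.04 and -0.05, and 0 passed with or without the block. In these comparisons 0% to 1.28% of all genes passed without the block and 0% to 8.63% with it.

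The genes whose pattern was most like that of Arid3a were M6pr (r = 0.957), Slc24a5 (0.890), Gfm2 (0.882), Madd (0.880) and Tpcn1 (0.878). The r is over 24 libraries centred within replicate number, among 9846 genes of average log2 CPM of at least 2, and over the 8 group means it was 0.993, 0.915, 0.931, 0.971 and 0.970. M6pr, a mannose 6-phosphate receptor that carries lysosomal enzymes, had group means of 256 ± 8.09, 251 ± 5.61, 316 ± 23.5 and 244 ± 3.26 CPM with miR-125b at day 2, day 10, continued and withdrawal, and 327 ± 11.0, 345 ± 24.1, 351 ± 39.4 and 368 ± 39.5 in control (SD). Like Arid3a it was closest to control in the libraries labelled continued, which follows from its choice by likeness to Arid3a in these same libraries. M6pr, Madd and Tpcn1 each hold 1 seed match and Slc24a5 and Gfm2 none, where 17.3% of tested genes with an annotated 3′ UTR held at least 1. The most opposite patterns were those of Plscr4 (r = -0.903), Mgat4b (-0.897) and Arf4 (-0.893), each with 0 seed matches.

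For Arid3b the closest were Sema4d (r = 0.889), Rnf44 (0.818), Lyn (0.817), Helz2 (0.817) and Atp6v0a1 (0.815), with 1, 2, 0, 0 and 0 seed matches. None of these is among the 5 closest to Arid3a. At least 1 match was held by 17.3% of tested genes with an annotated 3′ UTR. Among the members themselves, r was 0.730 for Arid3a with Arid3b and 0.705 for Arid4a with Arid4b. Arid3a had r = 0.684 with Arid2 and 0.672 with Arid1a, but 0.289 with Arid4b, 0.252 with Arid4a and 0.0867 with Arid1b. All these values share libraries and groups and are given as descriptions.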

How the data were processed

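Total RNA of 24 libraries was sequenced. The authors deposited whole-number read counts per gene, made with fastp, HISAT2 2.0.5 and featureCounts on mm10 per the submitters' processing notes; annotation release, strand setting and filters are not given in the sources used here. Of 47069 identifiers, 46488 matched a GENCODE M21 name; the rest took at most 0.0638% of a library. Column names were matched to sample descriptions in the labels, with 0 columns left over. No within-group pair of libraries agreed within sampling noise (chi-square per degree of freedom 10.7 to 99.9), so none was merged with another. This check cannot tell separate cultures from separate libraries of 1 culture.

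Counts were fitted with edgeR 4.0.16 (R 4.3.3; filterByExpr, TMM, robust glmQLFit and glmQLFTest, two-sided) on all 24 libraries and 8 groups, with 16 residual degrees of freedom and Benjamini-Hochberg adjustment over 13419 genes; an adjusted p under 0.05 was a call. SEs derive from the F statistic. CPM and RPKM were computed from TMM-scaled counts and merged exon lengths. The ratio used a pseudocount of 0.5 counts. Alternatives were DESeq2 1.42.0, its size factors in edgeR, no filter, only the libraries compared, the replicate number as a block, and each library left out. The fits were tested on simulated data, and the results of that are not given here.

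The labels number replicates 1 to 3 in every group without saying what a number shares. Deviations from group means correlated above 0.1 in 84 of 84 pairs of libraries with the same number (0.163 to 0.781, median 0.475; other pairs median -0.304), so the numbers pair the libraries by this check. Members and lists were chosen with earlier results of these data known. Partner and marker genes are named where they passed in a miR-125b comparison, at most 4 per list and comparison by lowest p; the 5 genes most like Arid3a and Arid3b and the 3 most opposite to Arid3a are named by correlation. Genes that passed with the block alone, and single marker values, were chosen after their values were seen. The block result of 1 marker gene is not reported here.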

Additional observations from a re-analysis of the deposited data

How the results depend on the processing

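Arid3a and Arid3b kept a negative sign in all 74 alternative values each of the miR-125b comparisons, and 45 of 980 alternative values in all turned sign, each on leaving out 1 library. With the replicate block, genes called went from 117 to 1158 at day 10, 0 to 2 with continued doxycycline, 16 to 249 after withdrawal and 172 to 858 in the average. They went from 0 to 7 and 0 to 1 for withdrawal against continued doxycycline with miR-125b and control, and from 30 to 547 and 0 to 20 for day 10 against day 2. The block raised the ARID members called from 1 to 2 after withdrawal and in the average, and changed no other member's call in the fits to all 24 libraries. DESeq2 called 4, 573, 3, 90 and 357 genes in the 4 conditions and the average, 3 and 8 for withdrawal against continued, and 304 and 40 for day 10 against day 2. It called 1 member at day 2 (Arid3a, -0.81) and 2 in the average. Without the filter the calls were 65 at day 10, 10 after withdrawal, and 18 and 1 for day 10 against day 2. With only the libraries compared, 0 genes and 0 members were called at day 10 (Arid3a -0.88) and after withdrawal (Arid3a -1.16), and 4 genes for day 10 against day 2 with miR-125b. The average without the day 13 libraries was chosen after seeing the data. The 35 genes past the threshold in it are given as a description, and no test is read from them.

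Leaving out 1 library, genes called ran from 1 to 799 at day 10, 5 to 15 after withdrawal, 81 to 260 in the average, and 4 to 241 (miR-125b) and 0 to 8 (control) for day 10 against day 2. Members called ran from 0 to 1 at day 10 and 1 to 2 in the average. Arid3a ran from -0.97 to -0.72 at day 10, and for day 10 against day 2 from -0.22 to 0.044 (miR-125b) and -0.19 to 0.077 (control). Signs turned for Arid4b (-0.18 to 0.029) and Arid5a (-0.075 to 0.24) at day 2, and for Arid1b (-0.00046 to 0.16), Arid4a (-0.030 to 0.12) and Arid4b (-0.022 to 0.14) at day 10. With continued doxycycline they turned for Arid1a (-0.0060 to 0.15), Arid1b (-0.020 to 0.17), Arid2 (-0.020 to 0.11), Arid4a (-0.029 to 0.20), Arid4b (-0.082 to 0.080) and Arid5a (-0.54 to 0.037). After withdrawal they turned for Arid1b (-0.22 to 0.19), Arid4a (-0.074 to 0.039), Arid4b (-0.071 to 0.094) and Arid5a (-0.39 to 0.27), and in the average for Arid1b (-0.053 to 0.049), Arid4a (-0.055 to 0.0018), Arid4b (-0.045 to 0.0087) and Arid5a (-0.063 to 0.10). The cause was not tested. The 13 to 53 counts of Arid5a and 1 to 10 of Arid5b limit what can be said of them.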
